A study of Homo sapiens with 9 samples.

Results

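The 10 genes described here are targets of the coactivator YAP and its DNA-binding partners, the TEAD factors: CTGF, CYR61, ANKRD1, F3, AXL, AMOTL2, LATS2, NT5E, CRIM1 and ASAP1. They were chosen by name, from widely used target lists, with earlier results of these data known. The deposited table of 17123 genes held all 10 under these symbols. All 10 were among the 11808 genes tested, meaning that at least 3 of their 9 FPKM values reached 1. FPKM is the number of fragments divided by transcript length and by the library's total. The cells were of LX-2, an immortalized line of human hepatic stellate cells, and TGFβ1 was given to every group, at 10 ng/ml. With 3 libraries per group, cells carried a negative control siRNA (the control group here), LOX siRNA or LOXL1 siRNA. LOX and LOXL1 siRNA were used at 25 nM for 48 hours, and neither dose nor time is given for the control siRNA. No group without TGFβ1 and no group without siRNA was analysed here. Whether libraries of 1 group stem from different cultures is not stated, so p-values reflect only the spread among these libraries, part of which may be technical.

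YAP and its paralogue TAZ (gene WWTR1) carry signals from cell shape, matrix stiffness and the Hippo kinases to the nucleus, where they bind TEAD factors and raise transcription of their targets. The kinases LATS1 and LATS2 phosphorylate YAP and TAZ and hold them in the cytoplasm. In hepatic stellate cells the pathway is known for its part in the change from a quiescent to a matrix-producing state. LOX and LOXL1 are extracellular enzymes by which collagen and elastin fibres become cross-linked and stiffer, so the siRNA groups allow the question of whether transcripts of YAP and TEAD targets differ when either enzyme's mRNA is lowered.

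TEAD factors bind the motif GGAATG, read as CATTCC on the other strand. RefSeq promoter entries (GRCh38.p14) were matched for 7 of the 10 genes, with 9 entries in all, and the 250 bases before each start were searched on both strands. The starts are those of RefSeq and can differ from the deposited gene positions. Some windows therefore lie inside the deposited gene, among them those of ANKRD1 and F3 in part and that of NT5E in whole. CTGF, listed there under its newer symbol CCN2, held 3 copies, which begin 169, 104 and 95 bases before the start. ANKRD1 held 2, beginning 220 and 128 bases before the start. AMOTL2 and AXL held 1 each, at 1 of their 2 listed starts, and F3, LATS2 and NT5E held none in this window. Of all 35116 promoter entries, 11.9% held at least 1 copy, 0.94% at least 2 and 0.0826% at least 3. The AP-1 motif, bound by Fos and Jun proteins that often share sites with TEAD factors, was searched in the loose form TGANTCA, with any base at N. F3 held 2 matches, TGAATCA and TGAGTCA, and ANKRD1 held 1, TGATTCA. Of all entries 6.57% held at least 1 match and 0.402% at least 2. The upstream sequences of these 3 genes are shown because CTGF is the textbook target with the densest motif, and ANKRD1 and F3 had the largest positive differences from control with LOXL1 siRNA. Capitals mark both motifs, which do not overlap.
CTGF (CCN2), chr6:131951373-131951622, minus strand: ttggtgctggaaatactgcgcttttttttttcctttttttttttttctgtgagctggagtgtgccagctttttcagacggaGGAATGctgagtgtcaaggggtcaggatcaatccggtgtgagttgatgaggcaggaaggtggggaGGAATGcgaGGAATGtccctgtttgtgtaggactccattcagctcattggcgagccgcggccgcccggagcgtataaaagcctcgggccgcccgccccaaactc
ANKRD1, chr10:90921088-90921337, minus strand: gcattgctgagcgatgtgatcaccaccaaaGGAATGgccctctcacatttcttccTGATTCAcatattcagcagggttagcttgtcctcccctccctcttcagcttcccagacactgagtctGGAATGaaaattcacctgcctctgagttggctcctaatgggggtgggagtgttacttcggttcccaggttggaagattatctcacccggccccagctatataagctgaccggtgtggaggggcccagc
F3, chr1:94541760-94542009, minus strand: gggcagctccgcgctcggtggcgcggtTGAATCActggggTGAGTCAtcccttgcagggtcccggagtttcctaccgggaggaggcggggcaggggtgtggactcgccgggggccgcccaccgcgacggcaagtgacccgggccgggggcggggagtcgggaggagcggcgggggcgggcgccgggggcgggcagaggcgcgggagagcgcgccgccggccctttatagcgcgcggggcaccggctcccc

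The libraries were alike in scale. Their FPKM values summed to between 384881 and 396088, and 11663 to 11728 genes reached an FPKM of 1. No read counts are held. If the lowest values above 0 among 1085 genes stand for 1 fragment each, the median product of FPKM and transcript length was 57.5 to 58.4, which would make the libraries near equal in depth. Only values close to the lowest of each gene entered, and values have 2 decimals, both of which can draw these medians together. LOX stood at 46.2 ± 2.94 FPKM (SD, n = 3) in control libraries, at 28.4 ± 2.67 with LOX siRNA and at 51.1 ± 1.39 with LOXL1 siRNA. LOXL1 stood at 12.3 ± 1.11, 11.7 ± 0.959 and 6.80 ± 0.997 FPKM in the same order. Each knockdown was therefore partial, and LOX and LOXL1 each passed the test against control with their own siRNA (limma, adjusted p = 6.73e-04 and 0.00432). Without the filter on low values LOXL1 did not pass (adjusted p = 0.0632). Of 8 stellate and myofibroblast markers all 8 were present, with VIM at 1480 and TAGLN at 584 FPKM in control, while ACTA2 and PDGFRB were low, at 7.51 and 7.44 FPKM, and COL1A2 lower still. The hepatocyte markers found (ALB, APOA1 and HNF4A) summed to at most 0.19 FPKM in any library, endothelial markers to at most 0.73 and cholangiocyte markers to at most 4.17. Of the leukocyte markers CD68 stood at 42.3 FPKM in control, PTPRC at 0.943 and CD14 at 1.82.

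All 10 targets were expressed in the control libraries, over a wide range of levels. FPKM is scaled to transcript length, so the deposited levels can be ranked, without correction for GC content or other differences between genes. CYR61 was highest at 287 ± 1.66 FPKM (SD, n = 3), above 98.5% of tested genes, followed by AXL at 206 ± 9.69, NT5E at 116 ± 3.12 and CTGF at 111 ± 2.46. ANKRD1 followed at 62.5 ± 2.03, CRIM1 at 50.7 ± 1.55, F3 at 46.7 ± 1.95 and ASAP1 at 43.6 ± 1.36. AMOTL2 at 28.2 ± 1.23 and LATS2 at 11.9 ± 0.139 were lowest, and LATS2 lay near the middle of all tested genes, above 47.8% of them. Neighbours in this order had control ranges that did not overlap, with the exceptions of NT5E with CTGF and of F3 with ASAP1. Over all 9 libraries CRIM1 and F3 overlapped as well. Spread within the control group was small, from 0.578% of the mean for CYR61 to 4.71% for AXL.

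**Figure D1:**
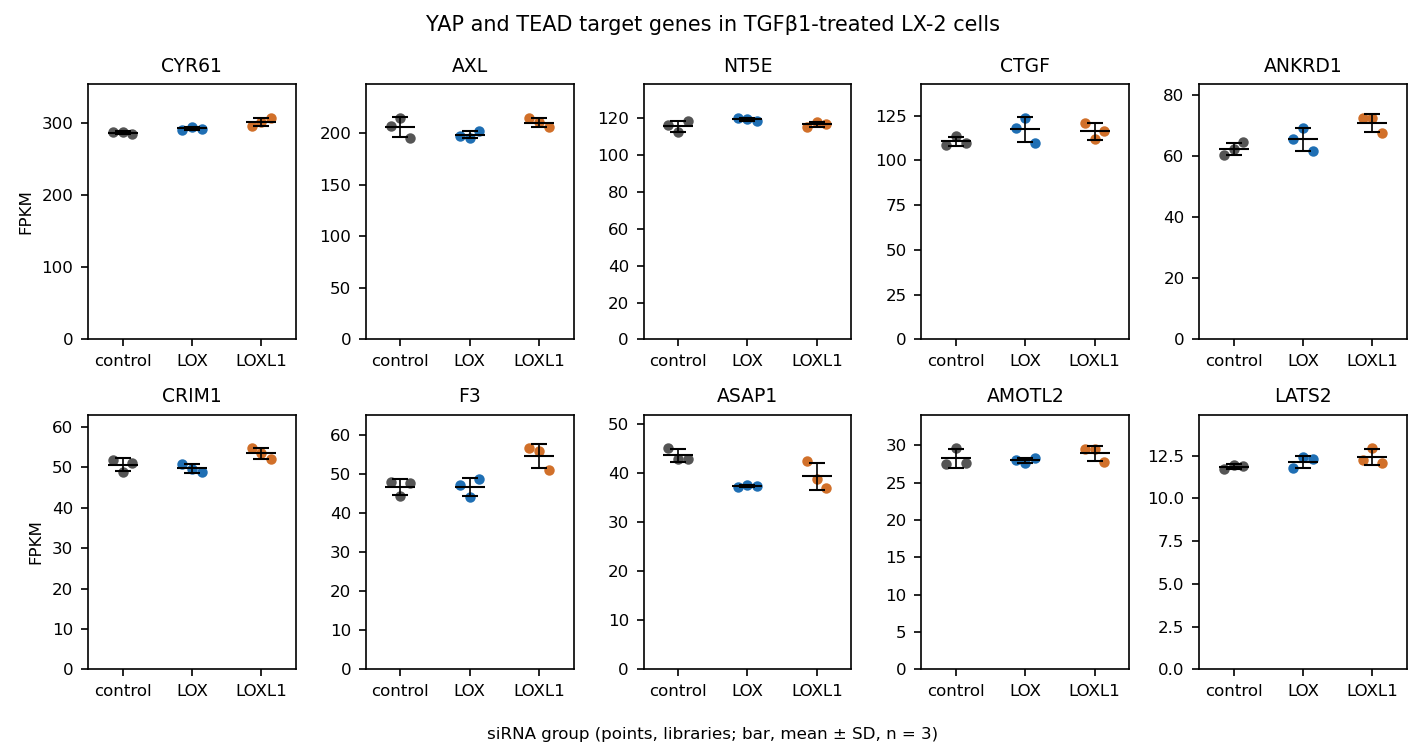
FPKM of the 10 target genes (y axes, from 0) in control, LOX siRNA and LOXL1 siRNA libraries (x axes), ordered by control level; points are libraries and bars are mean ± SD with n = 3. The groups lie close together in every panel, ASAP1 being lower with both targeting siRNAs and F3 and ANKRD1 higher with LOXL1 siRNA.

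Neither knockdown gave a difference past the threshold in any of the 10 genes. With LOX siRNA, 0 of 10 passed against control, 6 had a log2 difference above 0 and 4 below 0, and the median was 0.01, where the median of all tested genes was 0.0035 and 52.18% of them were above 0. With LOXL1 siRNA, 0 of 10 passed, 9 were above 0 and 1, ASAP1, below 0, and the median was 0.07, where that of all tested genes was -0.0058 and 46.73% of them were above 0. Between the knockdowns 0 of 10 passed, 8 were lower and 2 higher with LOX siRNA, and the median was -0.06 against 0.01 for all genes, of which 55.66% were higher. These are differences of mean log2(FPKM + 1), tested with limma over all genes with Benjamini-Hochberg adjustment at 0.05. The comparisons against control share the same 3 control libraries, so their results are not independent of each other.

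The calls are few across the whole table too. Over all tested genes 0.00847% passed with LOX siRNA against control, 0.0762% with LOXL1 siRNA, again against control, and 0.212% between the knockdowns. At an unadjusted p under 0.05 there were 1, 4 and 4 of the 10 targets in these comparisons, where all genes gave 6.93%, 10.2% and 12.8%. With LOXL1 siRNA 5 of the 10 lay wholly above the control libraries (CYR61, ANKRD1, F3, LATS2 and CRIM1) and 1 wholly below (ASAP1), where 5.74% and 8.57% of all genes did so and 14.3% did either. With LOX siRNA 1 lay wholly above (CYR61) and 1 wholly below (ASAP1), against 6.78% and 5.97% of all genes, or 12.8% in all. The 4 genes wholly lower with LOX siRNA than with LOXL1 siRNA were CYR61, F3, AXL and CRIM1, and NT5E was wholly higher, against 9.41% and 12.1% of all genes, or 21.5% in all. In these bulk libraries fewer cells holding a transcript and less of it per cell cannot be told apart.

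**Figure D2:**
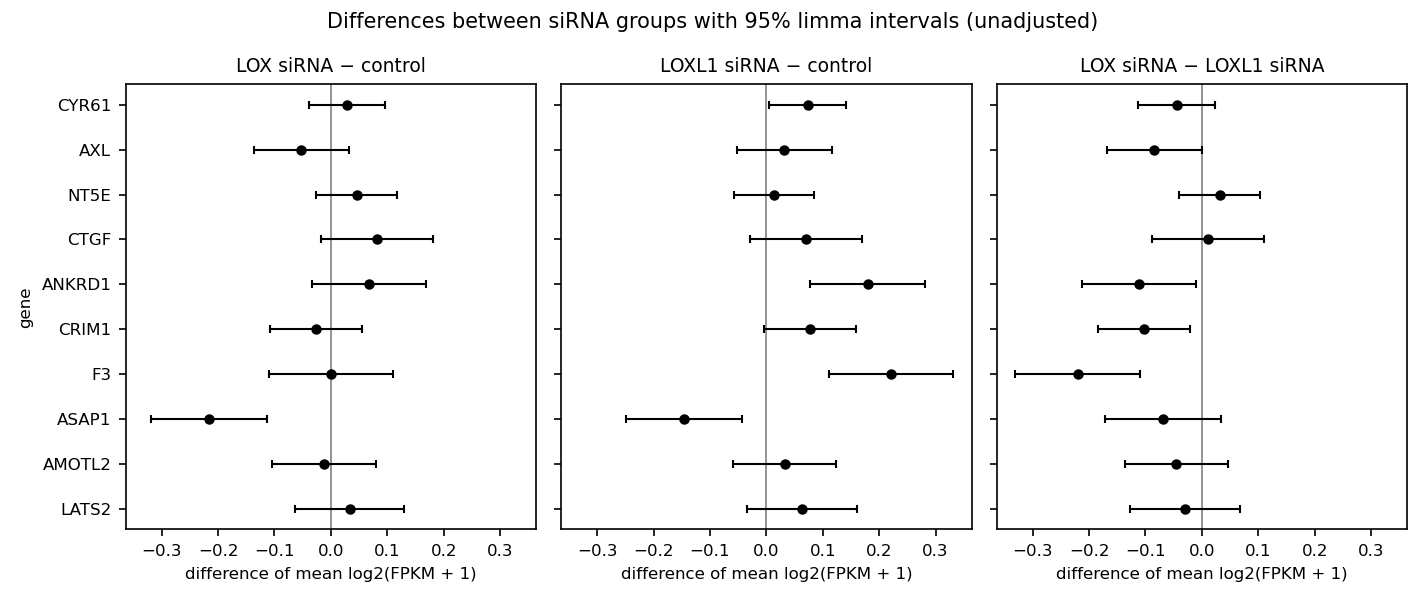
Differences between groups for the 10 targets (x axes, mean log2(FPKM + 1) of the first group minus the second) with 95% limma intervals that are not adjusted for the number of genes. With LOX siRNA the ASAP1 interval alone excludes 0, and with LOXL1 siRNA those of CYR61, ANKRD1, F3 and ASAP1 do, but no gene passed after adjustment over 11808 genes.

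CTGF and CYR61 encode secreted matricellular proteins of the CCN family and are the targets most often read as YAP output. CTGF (gene ID 1490, chromosome 6, 131948176 to 131951378, minus strand) stood at 108.73, 113.47 and 109.99 FPKM in control replicates 1 to 3, at 118.30, 123.87 and 109.84 with LOX siRNA and at 121.12, 111.75 and 116.31 with LOXL1 siRNA. Both knockdown groups overlapped the control range, with LOX siRNA replicate 3 among the control values. The log2 difference from control was 0.08 (SE 0.05, 95% interval -0.02 to 0.18, adjusted p = 0.721) with LOX siRNA and 0.07 (SE 0.05, -0.03 to 0.17, adjusted p = 0.616) with LOXL1 siRNA. The first was 0.04 without LOX siRNA replicate 2 and 0.13 without LOX siRNA replicate 3, and the second ranged from 0.04 to 0.10 with each library left out. A GENCODE antisense gene covers 8.34% of the CTGF exon bases, and no source used here says whether counting kept strands apart.

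CYR61 (gene ID 3491, chromosome 1, 85580761 to 85583967, plus strand) had the smallest spread of the 10 within the control group. It stood at 287.08, 287.83 and 284.66 FPKM in control, at 290.55, 294.54 and 291.83 with LOX siRNA and at 295.75, 301.69 and 307.00 with LOXL1 siRNA. The 3 groups did not overlap, in the order control, LOX siRNA, LOXL1 siRNA, but the steps were small: mean FPKM was 2.02% above control with LOX siRNA and 5.22% above with LOXL1 siRNA. The log2 differences were 0.03 (SE 0.03, adjusted p = 0.877) and 0.07 (SE 0.03, adjusted p = 0.457). With quantile normalization the first was -0.01.

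F3 and ANKRD1 had the largest positive differences, and these were with LOXL1 siRNA. F3, tissue factor, is the membrane receptor that starts the extrinsic path of blood clotting (gene ID 2152, chromosome 1, 94529176 to 94541857, minus strand). It stood at 47.96, 44.43 and 47.63 FPKM in control, at 47.25, 44.08 and 48.75 with LOX siRNA and at 56.75, 55.96 and 51.01 with LOXL1 siRNA. The LOX siRNA libraries lay across the control range and all 3 LOXL1 siRNA libraries lay above both other groups. Mean FPKM with LOXL1 siRNA was 16.9% above control, a log2 difference of 0.22 (SE 0.05, 95% interval 0.11 to 0.33) that did not pass (limma, adjusted p = 0.161; 0.0743 to 0.466 over the fits without 1 library each). F3 was lower with LOX siRNA than with LOXL1 siRNA by a log2 difference of -0.22 (SE 0.05, adjusted p = 0.109). That comparison passed in 1 fit, without LOXL1 siRNA replicate 3, the lowest of its group (-0.27, adjusted p = 0.0477).

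ANKRD1 encodes an ankyrin-repeat protein found in the nucleus and in the sarcomere of heart muscle (gene ID 27063, chromosome 10, 90912100 to 90921275, minus strand). It stood at 60.49, 62.50 and 64.55 FPKM in control, at 65.64, 69.35 and 61.86 with LOX siRNA and at 72.66, 72.58 and 67.56 with LOXL1 siRNA. LOXL1 siRNA libraries were all above control, and LOX siRNA libraries overlapped both. The log2 difference from control was 0.18 with LOXL1 siRNA (SE 0.05, 95% interval 0.08 to 0.28, adjusted p = 0.209) and 0.07 with LOX siRNA (SE 0.05, adjusted p = 0.776). The LOX siRNA difference was 0.03 without LOX siRNA replicate 2, 0.11 without LOX siRNA replicate 3 and 0.03 with the trends of each library on transcript length and GC content removed. In LOXL1 siRNA replicate 3 both F3 and ANKRD1 were the lowest of their group.

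F3 and ANKRD1 have the transcripts lowest in GC content among the 10 (43.7% and 43.3%), and libraries differed in GC bias. Across genes, Spearman's rho of a library's deviation with transcript GC was -0.309 to -0.222 in the LOXL1 siRNA libraries, and -0.0548, 0.694 and -0.288 in control replicates 1 to 3. With each library's trends on transcript length and GC content removed, the LOXL1 siRNA differences were 0.19 for F3 (adjusted p = 0.160) and 0.15 for ANKRD1 (adjusted p = 0.284).

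**Figure D3:**
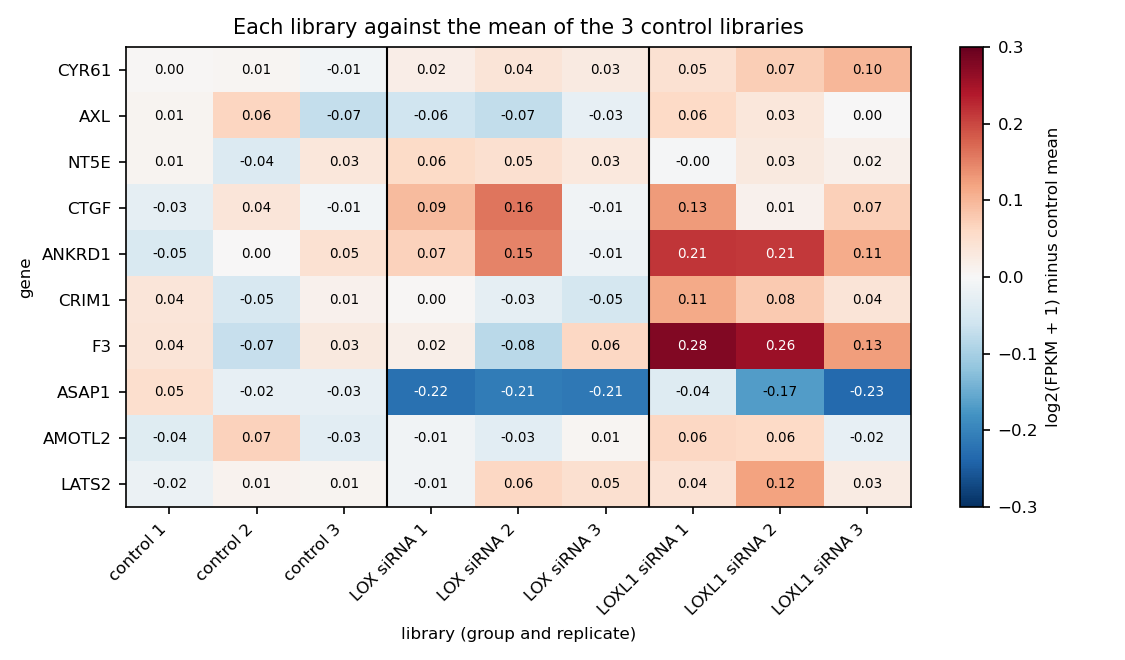
Deviation of each library (columns, by group and replicate) from the mean of the 3 control libraries in log2(FPKM + 1), for the 10 targets (rows, by control level); red is higher, blue lower. ASAP1 is blue in all LOX siRNA libraries and in LOXL1 siRNA replicates 2 and 3, and F3 and ANKRD1 are red in the LOXL1 siRNA libraries, most of all in replicates 1 and 2.

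ASAP1 was the 1 target with lower values in both knockdowns. It encodes a GTPase-activating protein for Arf GTPases that acts at focal adhesions (gene ID 50807, chromosome 8, 130052104 to 130443660, minus strand). It stood at 45.12, 42.78 and 42.75 FPKM in control, at 37.14, 37.50 and 37.41 with LOX siRNA and at 42.36, 38.66 and 36.87 with LOXL1 siRNA. All 6 knockdown libraries were below the lowest control library, tightly grouped with LOX siRNA and spread with LOXL1 siRNA, whose replicate 1 was close to control. Mean FPKM with LOX siRNA was lower by 14.2% than in control (37.4 ± 0.187 against 43.6 ± 1.36). The log2 difference was -0.22 (SE 0.05, 95% interval -0.32 to -0.11) and did not pass (limma, adjusted p = 0.423). With LOXL1 siRNA it was -0.15 (SE 0.05, 95% interval -0.25 to -0.04, adjusted p = 0.305).

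ASAP1 has the longest transcript of the 10, at 6347 bases. Longer transcripts had lower values in each LOX siRNA library, with Spearman's rho of -0.285, -0.279 and -0.249 across genes. In control replicates 1 to 3 it was 0.376, -0.166 and 0.138. With length and GC trends removed, the ASAP1 difference was -0.19 with LOX siRNA (adjusted p = 0.389) and -0.16 with LOXL1 siRNA (adjusted p = 0.145), near its size before.

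AXL, NT5E and CRIM1 encode proteins of the cell surface. AXL is a receptor tyrosine kinase whose ligand is GAS6 (gene ID 558, chromosome 19, 41219199 to 41261767, plus strand). It stood at 206.83, 215.14 and 195.82 FPKM in control, at 197.53, 195.58 and 202.19 with LOX siRNA and at 214.50, 210.74 and 206.02 with LOXL1 siRNA. Control libraries spanned most of the range of both knockdown groups, while the knockdown groups did not overlap each other (log2 difference -0.08, SE 0.04, adjusted p = 0.389). The transcript of its ligand GAS6 stood at 35.4 ± 1.21 FPKM in control, at 34.7 ± 1.58 with LOX siRNA and at 31.1 ± 0.422 with LOXL1 siRNA, all 3 of the last below control (log2 difference -0.18, SE 0.04, limma, adjusted p = 0.164).

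NT5E is CD73, the enzyme that makes adenosine from AMP outside the cell (gene ID 4907, chromosome 6, 85449584 to 85495791, plus strand). It stood at 116.37, 112.39 and 118.54 FPKM in control, at 120.40, 119.66 and 118.37 with LOX siRNA and at 115.43, 118.19 and 116.96 with LOXL1 siRNA. Its LOXL1 siRNA libraries lay within the control range, with an interval of -0.06 to 0.09 around a log2 difference of 0.01. CRIM1 encodes a transmembrane protein with cysteine-rich repeats that binds BMPs (gene ID 51232, chromosome 2, 36356227 to 36551135, plus strand). It stood at 51.96, 48.95 and 51.10 FPKM in control, at 50.82, 49.66 and 48.76 with LOX siRNA and at 54.88, 53.54 and 52.10 with LOXL1 siRNA. The LOXL1 siRNA libraries were above all others, by a log2 difference of 0.08 from control (SE 0.04, adjusted p = 0.509) and with LOX siRNA lower by -0.10 (SE 0.04, adjusted p = 0.279).

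AMOTL2 and LATS2 are targets that act back on YAP, AMOTL2 as an angiomotin-family protein that binds it and LATS2 as a kinase that phosphorylates it. AMOTL2 (gene ID 51421, chromosome 3, 134355345 to 134375417, minus strand) stood at 27.49, 29.65 and 27.56 FPKM in control, at 27.99, 27.58 and 28.32 with LOX siRNA and at 29.49, 29.47 and 27.72 with LOXL1 siRNA. All 3 groups overlapped, and the log2 differences from control were -0.01 and 0.03 (SE 0.04 each, adjusted p = 0.969 and 0.817). A pseudogene of RPL39 on the same strand covers 3.12% of the AMOTL2 exon bases. LATS2 (gene ID 26524, chromosome 13, 20973036 to 21061583, minus strand) stood at 11.69, 11.94 and 11.92 FPKM in control, at 11.75, 12.41 and 12.29 with LOX siRNA and at 12.25, 12.96 and 12.08 with LOXL1 siRNA. The LOXL1 siRNA libraries were above control by 4.89% in mean FPKM (log2 difference 0.06, SE 0.04, adjusted p = 0.653; 0.03 to 0.08 with each library left out).

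Transcripts of the coactivators and TEAD factors themselves gave no call. YAP1 stood at 47.3 ± 3.48, 47.0 ± 1.29 and 48.9 ± 1.44 FPKM (SD, n = 3) with control, LOX and LOXL1 siRNA, and WWTR1, which encodes TAZ, at 9.82 ± 0.492, 9.52 ± 0.343 and 9.95 ± 0.306. Of the DNA-binding partners TEAD4 was highest in control at 43.8 ± 3.86 FPKM, then TEAD3 at 33.0 ± 1.73, TEAD1 at 22.7 ± 1.16 and TEAD2 at 10.4 ± 0.555. All 6 overlapped between control and either knockdown. TEAD1 was lower with LOX siRNA (21.7 ± 0.106 FPKM, transcript of 9416 bases) than with LOXL1 siRNA (23.8 ± 1.19) without overlap, a log2 difference of -0.12 (SE 0.05, adjusted p = 0.297). With length and GC trends removed it was -0.05. These are mRNA levels, and the activity of YAP and TAZ is set largely by phosphorylation and location, which were not measured.

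**Figure D4:**
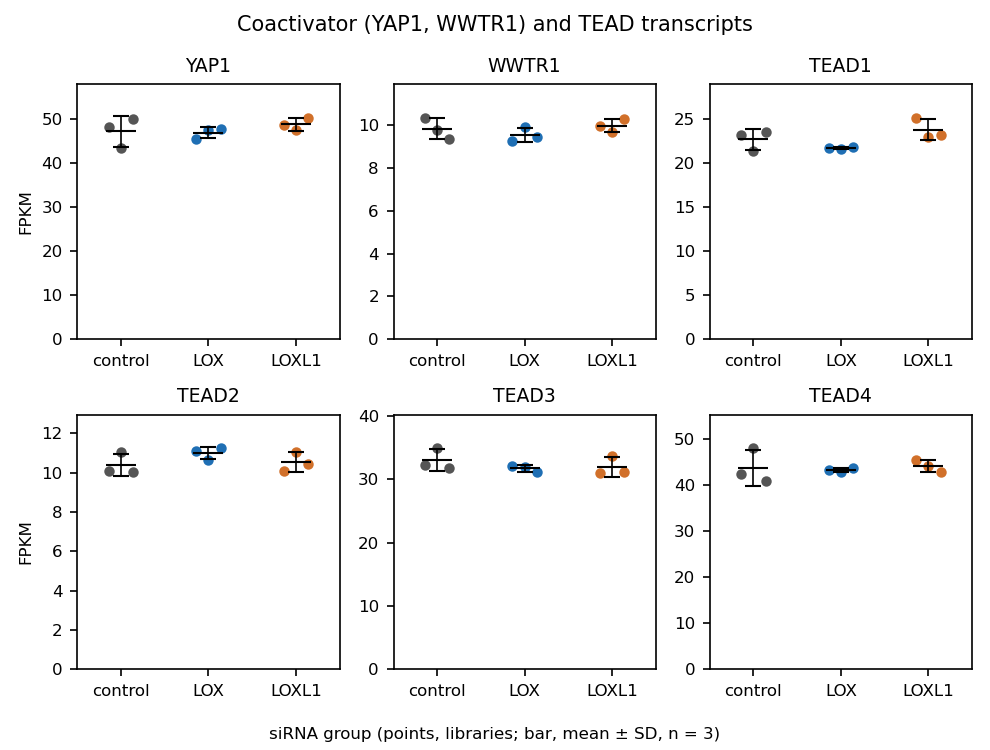
FPKM (y axes, from 0) of YAP1, WWTR1 and the 4 TEAD transcripts by siRNA group (x axes); points are libraries and bars are mean ± SD with n = 3. Every knockdown group overlaps the control group.

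Of 31 Hippo pathway genes listed (coactivators, TEAD factors, cofactors, kinases and scaffolds) 29 were tested, and 0 passed in any of the 3 comparisons (limma). At an unadjusted p under 0.05 there were 1 of the 29 with LOX siRNA, 0 with LOXL1 siRNA and 3 between the knockdowns, where all genes gave 6.93%, 10.2% and 12.8%. The 1 was LATS1 (transcript of 7517 bases), at 8.48 ± 0.381 FPKM in control and 7.56 ± 0.231 with LOX siRNA. Its log2 difference was -0.15 (SE 0.06, limma, adjusted p = 0.682). Wholly above control lay 0 with LOX siRNA and wholly below 5, where 6.78% and 5.97% of all genes did so. For LOXL1 siRNA these were 1 and 2, against 5.74% and 8.57%. Between the knockdowns 1 was wholly higher and 7 wholly lower with LOX siRNA, against 12.1% and 9.41%. With LOX siRNA 6 of 29 were above 0 (median -0.02), with LOXL1 siRNA 14 (median -0.0016) and between the knockdowns 7 (median -0.03). Of all tested genes 52.18%, 46.73% and 55.66% were above 0 in these comparisons. Transcripts in this list run from 1795 bases (TEAD4) to 12096 (TAOK1), and long ones read lower in the LOX siRNA libraries, as given with ASAP1. Whether length accounts for the share above 0 with LOX siRNA was not tested.

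Of 27 other reported YAP and TEAD targets 25 were tested, and 0 passed in any comparison (limma). Some of the 27 belong to the same published target signature as the 10 described above. FOXF2 and ITGB2 were below the filter, with means of at most 0.403 FPKM. At an unadjusted p under 0.05 there were 3, 6 and 8 of the 25 in the LOX siRNA, LOXL1 siRNA and direct comparisons, where all genes gave 6.93%, 10.2% and 12.8%. Their medians were -0.05, 0.0027 and -0.05. With LOX siRNA 7 of the 25 were above 0, with LOXL1 siRNA 13 and between the knockdowns 8, beside the shares of all genes given with the Hippo list. RBMS3, an RNA-binding protein, had the largest difference between the knockdowns, at 4.02 ± 0.373 FPKM with LOX siRNA and 5.26 ± 0.361 with LOXL1 siRNA (log2 difference -0.32, SE 0.07, adjusted p = 0.0947). TGFB2, a TGF-beta ligand, stood at 17.8 ± 0.448 and 20.8 ± 1.34 FPKM (-0.21, SE 0.05, adjusted p = 0.139). PTPN14, a phosphatase that binds YAP, stood at 12.1 ± 0.478 and 14.1 ± 0.796 FPKM (-0.20, SE 0.05, adjusted p = 0.151). GAS6 went the other way, at 34.7 ± 1.58 and 31.1 ± 0.422 FPKM (0.15, SE 0.04, limma, adjusted p = 0.167).

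Against control, GAS6, described with AXL, and TNS3 had the smallest p of these other targets with LOXL1 siRNA, followed by TGFB2 (log2 difference 0.16, SE 0.05) and RBMS3 (0.20, SE 0.07). TNS3, a tensin of focal adhesions, stood at 8.41 ± 0.125 FPKM in control, at 7.58 ± 0.265 with LOX siRNA and at 7.43 ± 0.161 with LOXL1 siRNA. Both knockdown groups were wholly below control, as for ASAP1 (log2 differences -0.13 and -0.16, SE 0.05, adjusted p = 0.658 and 0.272). With LOX siRNA the others with the smallest p were DOCK5, a Rac exchange factor (-0.17, SE 0.05, adjusted p = 0.569), PTPN14 (-0.15, SE 0.05, adjusted p = 0.650) and AJUBA, a LIM-domain scaffold (-0.11, SE 0.05, adjusted p = 0.706). All 3 were lower in each LOX siRNA library than in any control library. In the list of 25, 6 lay wholly below control with LOX siRNA and 0 above, where 5.97% and 6.78% of all genes did so. With LOXL1 siRNA 5 lay wholly below and 4 above, where 8.57% and 5.74% did so. Genes named by smallest p, TNS3 among them, are likely not to overlap, so this adds little to their p. Transcripts of DOCK5, PTPN14, TNS3 and RBMS3 run to 10217, 13443, 7618 and 8217 bases. Long transcripts read lower in the LOX siRNA libraries, as given with ASAP1, while rho with length was 0.308, 0.197 and -0.0489 in LOXL1 siRNA replicates 1 to 3. With length and GC trends removed, the LOX siRNA differences from control were -0.11 for DOCK5, -0.08 for PTPN14 and -0.07 for TNS3. Between the knockdowns they were then -0.24 for RBMS3 and -0.11 for PTPN14. Transcript GC was 63.7% for GAS6, 38.9% for TGFB2 and 36.6% for RBMS3. With the same trends removed, the LOXL1 siRNA difference from control was 0.14 for RBMS3. Over the alternatives other than leaving out a library, that difference ran from -0.19 to -0.12 for GAS6 and from 0.11 to 0.16 for TGFB2.

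**Figure D5:**
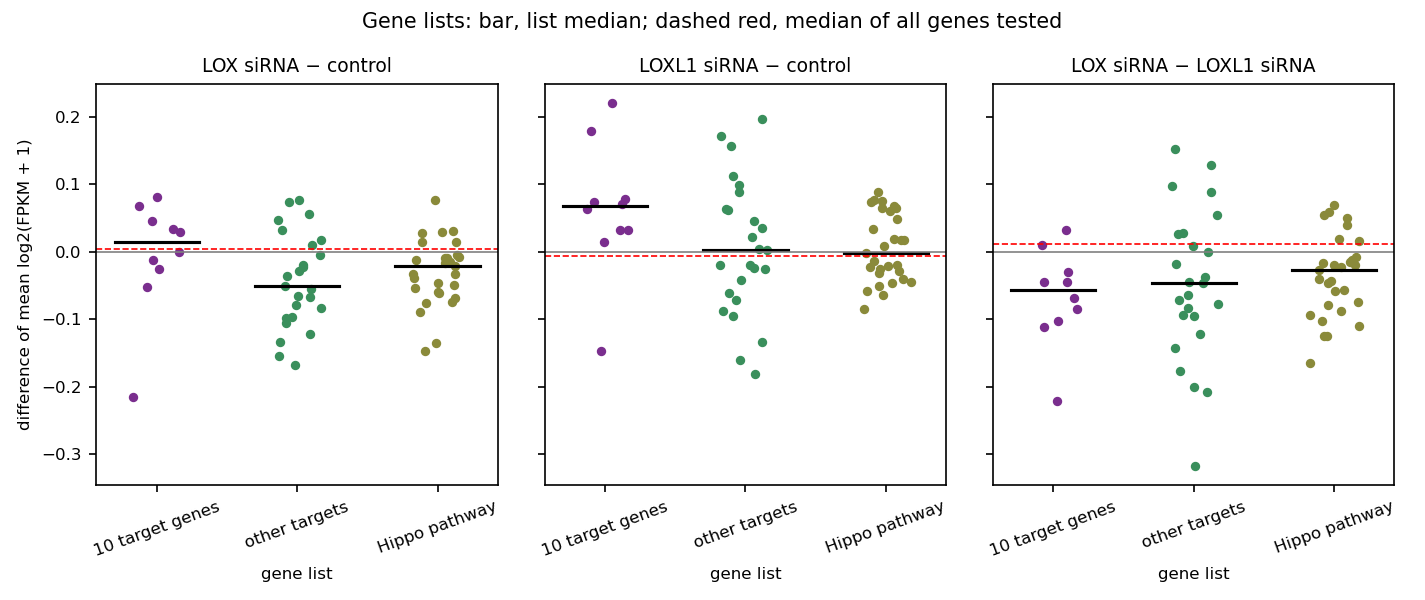
Difference of mean log2(FPKM + 1) (y axis) for each tested gene of the 10 targets, the 25 other targets and the 29 Hippo pathway genes, in the 3 comparisons; black bars are list medians and the dashed red line is the median of all tested genes. The 10 targets have a median of 0.07 with LOXL1 siRNA, beside 0.0027 for the other targets, and ASAP1 is the lowest of the 10 in both comparisons with control.

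The genes whose levels over the 9 libraries were most like the mean standardized profile of the 10 targets were NFATC2 (Pearson's r = 0.941), BTBD3 (0.922), PDE1C (0.912), TP53BP2 (0.907) and PEA15 (0.902). Their Spearman's rho was lower, at 0.817, 0.667, 0.55, 0.8 and 0.767 in the same order. Each of these genes had its highest group mean with LOXL1 siRNA. NFATC2 stood at 2.47, 2.58 and 3.03 FPKM and PEA15 at 365, 365 and 380 FPKM in control, LOX siRNA and LOXL1 siRNA. TP53BP2, which encodes a YAP- and p53-binding protein, belongs to the Hippo list. The closest to CTGF were SMIM11B (0.895), MBIP (0.888) and MRPL20 (0.888), and the closest to CYR61 were ZMYND11 (0.943), ANXA2 (0.930) and PTGER4 (0.921). These are the highest of 11808 genes over 9 libraries that share group structure, and are given as a description.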

How the data were processed

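The authors deposited FPKM values with 2 decimals, 1 column per library, per the file headers. TopHat2 2.0.10 and hg19 are named in the submitters' processing notes; no source used here names the tool behind the FPKM values. Gene positions follow GRCh38: 17086 IDs matched a GRCh38.p14 table, 91.4% with starts within 5000 bases, including all 10 targets. No read counts are held, so no counting interval is given.

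Values were analysed as log2(FPKM + 1) for genes at 1 FPKM or more in at least 3 of 9 libraries. One limma 3.58.1 model (R 4.3.3, empirical Bayes with trend, 6 residual degrees of freedom) covered 3 groups, with Benjamini-Hochberg adjustment over 11808 genes at 0.05. The procedure was tested on simulated data with independent normal noise for each gene, which held none of the length and GC trends of these libraries. An exact permutation test of 3 against 3 libraries cannot give a p under 0.1.

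The 10 targets, the gene lists and the alternatives were chosen with earlier results of these data known. Named genes were the 10 targets, LOX, LOXL1, YAP1, WWTR1, the TEAD genes, up to 4 other targets per comparison by smallest p, and nearest profiles by Pearson's r. GAS6 follows from that rule, and LATS1 was added as the 1 Hippo pathway gene at an unadjusted p under 0.05 with LOX siRNA. Transcript GC came from GENCODE 29, for 99.6% of tested genes; trends were removed with natural splines of 4 degrees of freedom. Promoters came from RefSeq. Alternatives were median-ratio scaling, quantile normalization, no trend, no filter, a mean of 5 FPKM or more, another pseudocount, the compared groups alone, a replicate block, removal of length and GC trends, and each library left out.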

Additional observations from a re-analysis of the deposited data

How the results depend on the processing

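Of 540 values of the 10 targets under 18 alternatives each, 523 kept their direction and their side of the threshold, 1 passed where it had not and 16 changed sign without passing. The 1 was F3 between the knockdowns without LOXL1 siRNA replicate 3, so the count of targets called there ranged from 0 to 1 with each library left out; it was 0 under every other alternative and in both comparisons with control. Direction could not change under alternatives that leave the log2 difference itself as it was. These were no trend, no filter, a mean of 5 FPKM or more, the compared groups alone and the replicate block. Leaving out a library outside the comparison did the same, so the 523 overstate how often direction was put to a test. Leaving out 1 library moved 18 of the 30 differences of the 10 targets by over 1.5 times, none of them a call. Sign changes were in values near 0, and their cause was not tested. With LOX siRNA against control, F3 was -0.0011 with median-ratio scaling, -0.0135 with quantile normalization and -0.0300 with length and GC trends removed, CYR61 was -0.0111 with quantile normalization, and AMOTL2 was 0.0283 and YAP1 0.0053 with trends removed. With LOXL1 siRNA, WWTR1 was -0.0158 and TEAD3 0.0015 with trends removed. Between the knockdowns CTGF was -1.157e-04 with median-ratio scaling, -0.0175 with quantile normalization and -0.0107 with trends removed. With each library left out, the LOX siRNA differences ranged from -0.0342 to 0.0403 for F3, -0.0308 to 0.0219 for AMOTL2, -0.0670 to 0.0350 for YAP1, -0.0576 to 0.0589 for TEAD4 and -0.0567 to 0.0064 for GAS6. The LOXL1 siRNA differences ranged from -0.0038 to 0.0638 for AXL, -0.0073 to 0.0308 for NT5E, -0.0100 to 0.0920 for YAP1, -0.0126 to 0.0527 for WWTR1, -0.0163 to 0.0570 for TEAD2, -0.0305 to 0.0859 for TEAD4 and -0.0423 to 0.0013 for DOCK5. Between the knockdowns they ranged from -0.0291 to 0.0569 for CTGF, -0.0288 to 0.0298 for TEAD3 and -0.0686 to 0.0147 for AJUBA.

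Counts over all genes moved more. LOX siRNA against control gave 1 call, and 2 with no filter or with trends removed (1 to 2 in the fits without 1 library, 2 being without LOX siRNA replicate 1). LOXL1 siRNA against control gave 9, and 28 with trends removed (6 to 14 with each library left out, 14 without LOXL1 siRNA replicate 3). The direct comparison gave 25, and 11 with quantile normalization, 8 without the trend in limma, 4 with no filter, 33 with the compared groups alone and 34 at a mean of 5 FPKM or more. With each library left out it gave 5 (LOX siRNA replicate 2 or 3 left out) to 56 (control replicate 2 left out). With the replicate number as a block it gave 15. The labels do not say whether equal numbers mark a pair. Deviations of same-numbered libraries had r from -0.0676 to 0.0253, and 0 of 9 libraries were closest to their own number in both other groups. These values show no shared effect of the number, but cannot tell whether same-numbered libraries were handled together. The LOXL1 gene was not called without the filter in the direct comparison either (adjusted p = 0.103), nor there without LOX siRNA replicate 3 (adjusted p = 0.0520). RBMS3, with a mean under 5 FPKM, has no value at that filter.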
